A study of Mus musculus with 23 samples.

Results

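The 83 genes described here encode the nuclear subunits of the oxidative phosphorylation system, out of 18193 genes tested. They were chosen by symbol: all genes starting with Ndufa, Ndufb, Ndufc, Ndufs, Ndufv, Uqcr or Atp5 or with Cox4 to Cox8, plus Sdha, Sdhb, Sdhc, Sdhd and Cyc1, without the Ndufaf assembly factors. Of these, 34 belong to complex I, 4 to complex II, 9 to complex III, 19 to complex IV and 17 to complex V. Ndufa4, now placed in complex IV, and its paralog Ndufa4l2 were counted there.

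The RNA samples were 8 subclones of LLC, the Lewis lung carcinoma line, which grows in culture and as a transplanted tumour in mice. Limiting dilution of the parental line gave each subclone. Cells were maintained with 10% serum, and serum was withheld for 24 h ahead of RNA extraction. There were 23 arrays in all: 3 for each of subclones 2, 3, 18, 19, 23, 24 and 28, against 2 for subclone 6. A subclone stands for a single clone of the line, no parental sample was analysed here, and no subclone is a stated control. Arrays of a subclone are labelled as biological replicates, but separate cultures are not named, so p-values measure the spread between these arrays, which may be technical.

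Oxidative phosphorylation takes place in the inner mitochondrial membrane. Complex I (NADH dehydrogenase) and complex II (succinate dehydrogenase) pass electrons to ubiquinone, complex III (the cytochrome bc1 complex) passes them to cytochrome c, and complex IV (cytochrome c oxidase) hands them to oxygen. Complexes I, III and IV pump protons, and complex V (ATP synthase) uses the proton gradient to make ATP. The subunits of each complex are needed in fixed proportions, and most are encoded in the nucleus, on many different chromosomes. A smaller set of subunits is encoded in mitochondrial DNA and was not analysed here.

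Levels below are log2(intensity + 16) of the probe set with the highest mean over all arrays, and differences are log2 differences of a subclone from the mean of the other 7, with the standard error (SE) from limma. A fold is on that scale and understates changes at low intensity. A gene was called higher or lower at a Benjamini-Hochberg adjusted p under 0.05 over all genes tested. Probe sets differ in sensitivity, so levels of different genes were not ranked against each other. Array medians of the intensities lay between 40.83 and 45.74, and for arrays, their number limits the precision. Of the markers of other cell types, all 4 for endothelium, both for adipocytes and 4 of 5 for leukocytes had means under 5.3, the level taken here as low. Cd68 (7.57) and the 3 fibroblast markers (summed level 9.49 to 12.37 over the arrays) differed between subclones. Of the 6 lung epithelium markers (summed level 11.04 to 12.77), Krt8, Krt18, Epcam and Sftpc passed the F-test, with array levels of 5.59 to 11.38, 10.8 to 12.01, 7.02 to 8.07 and 4.74 to 5.87, and the means of Nkx2-1 and Cdh1 were below 5.3. In subclone 18 Krt8 (-5.14) and Krt18 (-0.85) were lower and Epcam (0.53) was higher. The part of these markers in the differences below was not tested. In bulk RNA, fewer cells of a type and less RNA per cell cannot be told apart.

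Most of the subunit genes read high. Of the 83, 72 had a mean level of at least 10 and the other 11 lay under 8, 4 of them under 5.3. The F-test over the 8 subclones called 76 of them (91.6%), against 61.8% of all genes tested. Of the 79 members with a mean of at least 5.3 it called 96.2%, against 84% of all genes at or above that level. The differences were small. The range of subclone means had a median of 0.35 over the 83 genes, against 0.49 over all genes tested. For the 79 members at or above 5.3 it was 0.38, against 0.58 over all genes at or above 5.3. The median level was 11.5 over the 83 genes, 6.9 over all genes tested and 8.55 over those at or above 5.3. The sets were not matched for level, and its part in the ranges was not tested. At the chosen probe set, none of the 83 had a range of 1 log2 unit (highest 0.93, in Ndufb1 and Uqcr11), whereas 12.7% of all genes tested passed the F-test with such a range. Weaker probe sets of Uqcr10, Atp5c1, Ndufab1 and Atp5g1, with means of 5.03 to 7.87, had ranges of 1.04 to 1.96. A call with a range of at least 0.5 was found for 19 of the 83 genes (22.9%), against 43.3% of all genes tested.

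**Figure D1:**
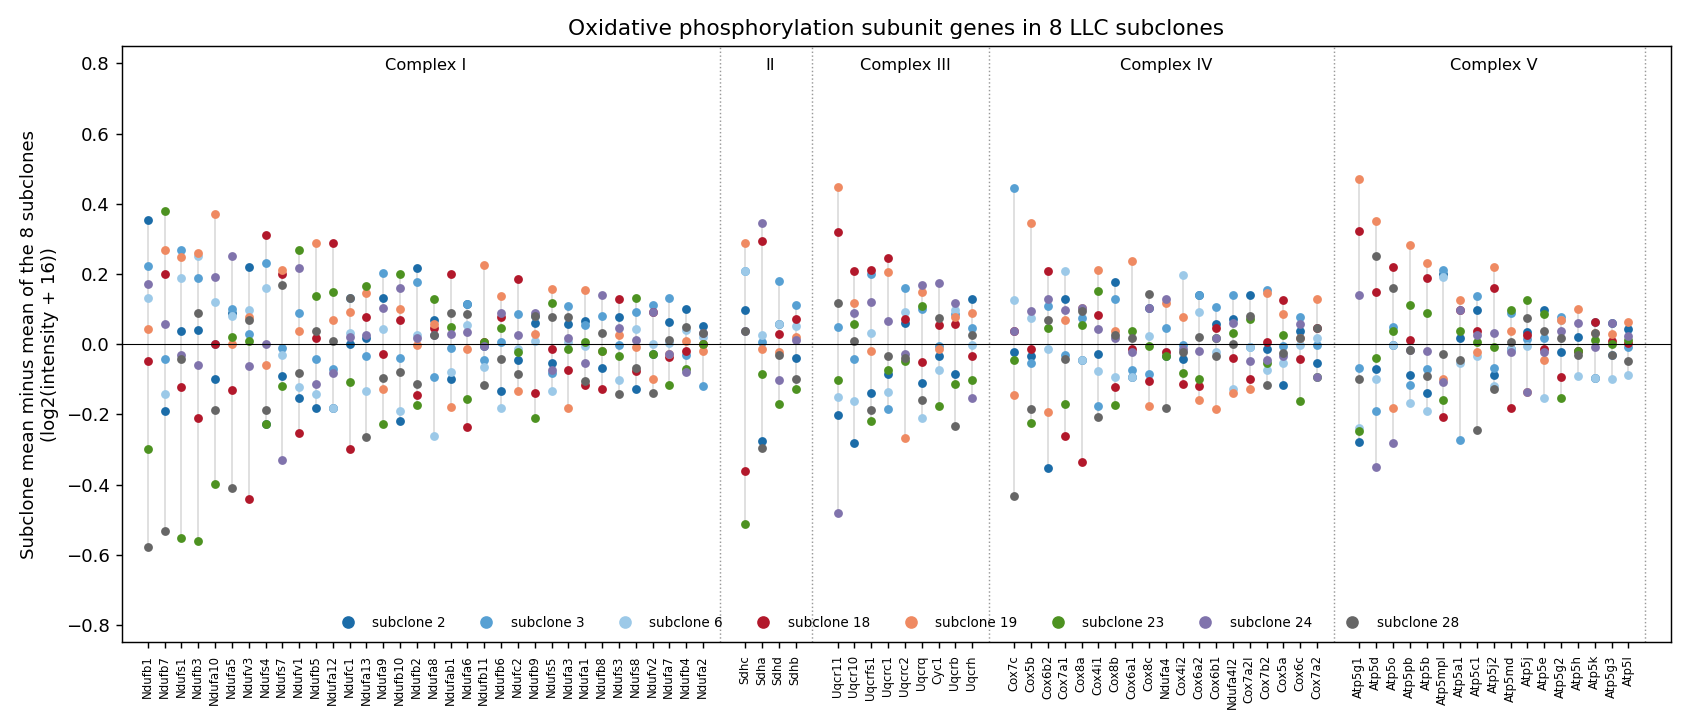
Each column is a subunit gene, grouped by complex and ordered by range; the y axis gives the mean of each subclone minus the mean of the 8 subclones, in log2(intensity + 16), and each coloured point is a subclone (n = 3 arrays, 2 for subclone 6). All points lie within 0.6 log2 units of the zero line, and the subclone at the top or bottom changes from gene to gene within a complex.

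The genes did not differ in one direction within a subclone. In subclone 3, 32 of 83 genes were higher (19.4% of all genes tested were) and 9 were lower (18.6%). In subclone 19, 34 were higher (24.2% of all genes) and 14 lower (17.7%). These were the subclones with the most members on the higher side. In subclone 23, 17 were higher (20.2% of all genes) and 28 lower (17.4%), and in subclone 28, 13 were higher (19.2%) and 28 lower (18.2%). Subclone 6 had 8 higher (13.8% of all genes) and 19 lower (10.1%), and subclone 24 had 20 higher (15.2%) and 11 lower (17.1%). In subclone 18, 24 were higher (21.5%) and 20 lower (21.6%), and in subclone 2, 15 were higher (15.4%) and 22 lower (20.5%). The median difference over the 83 genes lay between -0.03 (subclone 28) and 0.07 (subclone 19), with the median of all genes tested between -0.01 and 0.02. Centring each array on its median turned the balance in subclone 2 to 27 higher and 15 lower, and quantile normalization made that in subclone 18 34 higher and 17 lower. In subclone 3, centring left 5 genes lower. With the mean over all probe sets of a gene, 12 members were higher in subclone 24.

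Single arrays set some of these counts. The count of genes higher in subclone 6 was 5 without its replicate 1, and the count lower was 6 without its replicate 2. For subclone 28, the count of higher genes was 7 without its replicate 1, 6 without replicate 2 and 7 without replicate 3. For subclone 23, it was 11 without its replicate 3.

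**Figure D2:**
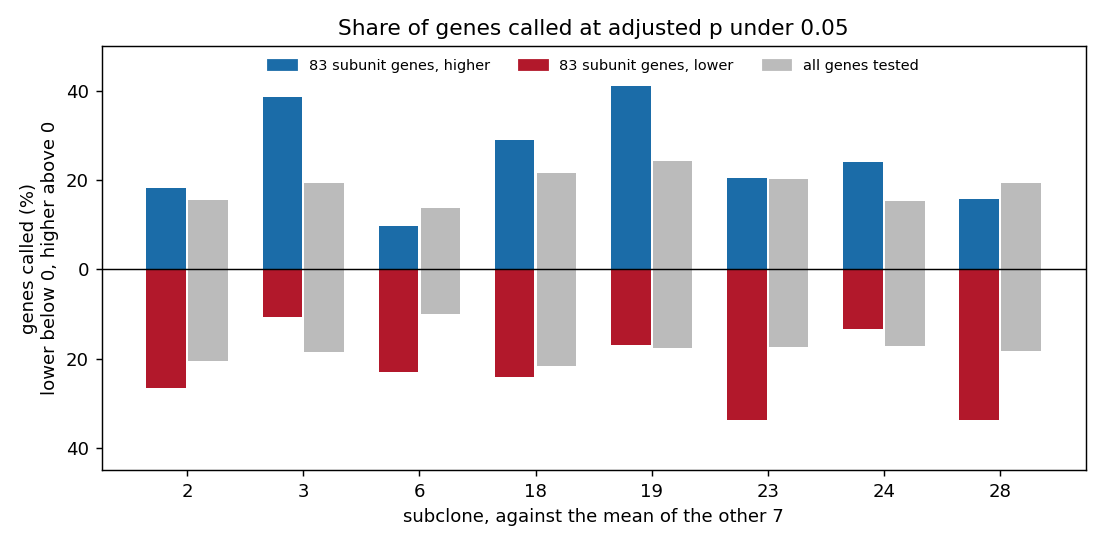
Bars give the percentage of genes called higher (above 0) or lower (below 0) in each subclone at a limma adjusted p under 0.05, for the 83 subunit genes (blue and red) and for all 18193 genes tested (grey). Subclones 3 and 19 have the tallest blue bars (38.6% and 41%), and subclones 23 and 28 the longest red ones (33.7% each).

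Few members differed by as much as 0.5 log2 units. In all, 9 genes passed that bar with an adjusted p under 0.05, in 10 gene and subclone combinations. Subclone 23 had 3 lower (3.61%, against 3.34% of all genes tested) and 0 higher (2.84% of all genes). Subclone 28 had 2 lower (2.58% of all genes) and 0 higher (4.17%), and subclone 19 had 2 higher (4.33%) and 0 lower (3.15%). Subclone 18 had 1 lower (6.02%) and 0 higher (4.18%), and subclone 24 had 1 lower (3.3%) and 0 higher (1.51%). Subclone 3 had 1 higher (3.19%) and 0 lower (2.62%). Subclone 2 had 0 higher (2.06%) and 0 lower (3.62%), and subclone 6 had 0 higher (2.37%) and 0 lower (0.945%). All these counts are from limma and were the same at an unadjusted p under 0.05. Without the size bar, 37 members were called in subclone 2 and 27 in subclone 6. In subclone 2, 15.4% of all genes tested were higher and 20.5% lower, and in subclone 6, 13.8% and 10.1%.

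Complex I takes electrons from NADH. Its peripheral arm, which binds NADH and carries the iron-sulphur clusters, contains Ndufs1, Ndufv1, Ndufv2, Ndufs7 and Ndufs8, and the membrane arm pumps protons. Ndufs1, the largest subunit and a carrier of iron-sulphur clusters, measured 10.24, 10.23 and 10.31 on the 3 arrays of subclone 23 and 10.67 to 11.15 on all other arrays. The groups did not overlap, and the difference was -0.63 ± 0.031 SE (1.55-fold lower, adjusted p = 1.66e-11). Ndufb3, a membrane arm subunit, had the same pattern, with 10.94, 10.91 and 10.97 in subclone 23 and 11.24 to 11.81 elsewhere (-0.64 ± 0.028 SE, adjusted p = 2.87e-12). Both genes were also lower in subclone 18, where their arrays lay between those of subclone 23 and the rest for Ndufb3 (-0.24, adjusted p = 6.82e-07). For Ndufs1 in subclone 18 the difference was -0.13 (adjusted p = 0.00153).

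Ndufb7, a small subunit of the membrane arm, was lowest in subclone 28, at 10.39, 10.29 and 10.34 against 10.61 to 11.33 elsewhere. The difference was -0.61 ± 0.039 SE (1.52-fold lower, adjusted p = 5.41e-10), and a further probe set of the gene gave -0.65. Its highest level was in subclone 23 (11.21, 11.19 and 11.33; difference 0.43 ± 0.039 SE, adjusted p = 4.73e-08). Ndufa5, a peripheral arm subunit, was low in subclone 28 as well, at 10.07, 10.1 and 10.08 against 10.3 or more on every other array (-0.47 ± 0.037 SE, adjusted p = 1.03e-08). It was highest in subclone 24, at 10.73, 10.73 and 10.76 against at most 10.66 elsewhere (0.28 ± 0.037 SE, adjusted p = 7.55e-06). Ndufb1, another membrane arm subunit, measured 6.14, 6.24 and 6.24 in subclone 28 and 6.39 to 7.29 elsewhere (-0.66 ± 0.079 SE, adjusted p = 1.59e-06). Its replicates also differed more than those of the genes above: subclone 2 alone spanned 6.88 to 7.29.

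Ndufv3, an accessory subunit next to the NADH site, passed the bar of 0.5 in subclone 18. Its arrays there measured 11.57, 11.56 and 11.65, and all other arrays 11.91 to 12.34. The difference was -0.51 ± 0.039 SE (1.42-fold lower, adjusted p = 3.41e-09). Ndufa10, a membrane arm subunit related to nucleoside kinases, ran from 11 in subclone 23 to 11.77 in subclone 19, and its arrays were below all others in the former and above all others in the latter. At the other end, Ndufa2, a peripheral arm subunit, had the smallest range of the complex, 0.17 (F-test adjusted p = 0.0114), a call that leaving out replicate 1 or replicate 2 of subclone 3 moved to 0.0745 or 0.0502. Over the 34 genes of complex I, 17 were higher and 3 lower in subclone 3 (19.4% and 18.6% of all genes tested were), and 14 higher and 5 lower in subclone 19 (24.2% and 17.7%). In subclone 24, 9 were higher and 3 lower (15.2% and 17.1%). Subclone 28 had 7 higher and 15 lower (19.2% and 18.2%), subclone 6 had 4 and 9 (13.8% and 10.1%), subclone 2 had 7 and 10 (15.4% and 20.5%), subclone 18 had 10 and 13 (21.5% and 21.6%), and subclone 23 had 9 and 12 (20.2% and 17.4%). The count of 17 in subclone 3 was 11 without its replicate 2 or 3. The 7 higher in subclone 28 were 2 without its replicate 2 and 3 without replicate 1 or 3, and the 9 lower in subclone 6 were 4 without its replicate 2. Ndufb4 was represented by a probe set at the floor (4.86, F-test adjusted p = 0.858), which gives no measurement of that subunit.

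Complex II links the tricarboxylic acid cycle to the chain: Sdha carries the flavin, Sdhb the iron-sulphur clusters, and Sdhc and Sdhd anchor them in the membrane. All 4 were lower in subclone 23 (17.4% of all genes tested were), by very different amounts. Sdhc measured 9.52, 9.54 and 9.55 there, next to 9.75, 9.63 and 9.67 in subclone 18 and 10.04 to 10.35 in the other 6 subclones. Its difference was -0.58 ± 0.027 SE in subclone 23 (1.5-fold lower, adjusted p = 7.24e-12) and -0.41 ± 0.027 SE in subclone 18 (adjusted p = 3.71e-10), and its further probe set gave -0.47 in subclone 23. The catalytic subunit gene Sdha followed another order, with 11.53, 11.54 and 11.57 in subclone 24, 11.49, 11.49 and 11.52 in subclone 18, and 10.9 to 10.95 on the arrays of subclones 2 and 28. Sdha was higher in subclones 24 (0.39 ± 0.032 SE, adjusted p = 1.41e-08) and 18 (0.34 ± 0.032 SE, adjusted p = 4.52e-08), so in subclone 18 the catalytic subunit and the membrane anchor Sdhc differed in opposite directions. In subclone 23, Sdhd (-0.19), Sdhb (-0.15) and Sdha (-0.09, adjusted p = 0.0243) were lower by less. Sdhb had the smallest range of the complex, 0.25 (F-test adjusted p = 0.00173). In some fits without a single array, 3 and not 4 were lower in subclone 23. In subclone 3, 3 were higher and 0 lower (19.4% and 18.6% of all genes tested were), and in subclone 28, 0 and 2 (19.2% and 18.2%). The 2 were 1 without replicate 2 or 3 of subclone 28. The remaining subclones each had 1 higher and 0 or 1 lower (13.8% to 24.2% and 10.1% to 21.6% of all genes tested were).

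Complex III was led by Uqcr11, a small accessory subunit. Its arrays measured 10.46, 10.38 and 10.38 in subclone 24, 11.22, 11.21 and 11.2 in subclone 18, and 11.39, 11.3 and 11.34 in subclone 19. Subclone 24 lay below and subclone 19 above every other array, with differences of -0.55 ± 0.035 SE (adjusted p = 7.03e-10) and 0.51 ± 0.035 SE (adjusted p = 1.26e-09). Uqcr10, also a small subunit, was lowest in subclone 2 (10.57 to 10.63 against 10.69 or more elsewhere; -0.32 ± 0.03 SE, adjusted p = 8.62e-08). Over the subclone means, another probe set of Uqcr10 (mean 10.71) had r = 0.99 with this one, and a weaker one (mean 7.81) r = -0.67. The core genes Uqcrc1 and Uqcrc2 had equal ranges of 0.43 but opposite ends: Uqcrc1 was at 10.96 in subclone 18 and 10.92 in subclone 19, and Uqcrc2 was lowest in subclone 19 (11.61). Uqcrfs1, the Rieske iron-sulphur protein gene, also had a range of 0.43, and the hinge protein gene Uqcrh had the smallest, 0.28. Of the 9 genes, 5 were higher and 0 lower in subclone 18 (21.5% and 21.6% of all genes tested were), 5 and 1 in subclone 19 (24.2% and 17.7%) and 5 and 2 in subclone 24 (15.2% and 17.1%). Subclone 3 had 3 higher and 1 lower (19.4% and 18.6%). In subclone 23, 1 was higher and 5 were lower (20.2% and 17.4%), in subclone 2 also 1 and 5 (15.4% and 20.5%), in subclone 6, 1 and 4 (13.8% and 10.1%), and in subclone 28, 1 and 3 (19.2% and 18.2%). Single arrays of the subclone itself set several of these: the 5 lower were 3 in subclone 23 without its replicate 2, and 3 in subclone 2 without its replicate 1 or 2. The 4 lower in subclone 6 were 0 without its replicate 2, and the 5 higher in subclone 24 were 3 without its replicate 1.

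Complex IV has tissue isoforms for several subunits, and in these cells the probe sets of the general forms read high. Cox4i1, Cox6a1, Cox6b1, Cox7a2, Cox7a2l (a factor in supercomplexes), Cox8a and Ndufa4 had means of 12.16 to 12.98 and passed the F-test with ranges of 0.22 to 0.44. Among the counterparts known from muscle, lung, testis or hypoxic cells, Cox4i2 (6.60), Cox7b2 (4.38), Cox8b (5.29) and Ndufa4l2 (4.23) did not pass it (adjusted p 0.374 to 0.842). Cox6a2 (6.96, adjusted p = 0.00798), Cox7a1 (5.56, adjusted p = 6.06e-04), Cox6b2 (5.48, adjusted p = 0.0189) and Cox8c (7.24, adjusted p = 0.0378) passed. The arrays of these 4 genes spanned 4.89 to 7.47, and their differences lay close to the low end of the scale. The call of Cox8c was lost with the replicate number as a block (adjusted p = 0.0626) and when any of 12 arrays was left out singly (adjusted p 0.0504 to 0.0911; 1 or more of the arrays of subclones 2, 3, 19, 23, 24 and 28), and that of Cox6b2 without replicate 2 or 3 of subclone 2 (0.0569 and 0.0736).

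Within complex IV the widest range was that of Cox7c, a small structural subunit, whose probe set read low (mean 7.62) and carries a suffix for shared sequence. It measured 8.11, 8.06 and 8.04 in subclone 3, above all other arrays, and 7.16, 7.22 and 7.21 in subclone 28, below all others. The differences were 0.51 ± 0.048 SE (adjusted p = 1.02e-07) and -0.49 ± 0.048 SE (adjusted p = 1.32e-07), and the second probe set of the gene gave 0.44 in subclone 3. Cox5b, a zinc-binding subunit facing the matrix, ran from 12.42 in subclone 23 to 12.99 in subclone 19, where its arrays (12.97 to 13.03) lay above all others (0.40 ± 0.031 SE, adjusted p = 5.85e-09). Cox8a was lowest in subclone 18, at 11.84 to 11.88 against 12.11 or more (-0.39 ± 0.031 SE, adjusted p = 5.19e-09). Cox7a2 had the smallest range of the complex, 0.22.

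In complex V the catalytic beta subunit gene Atp5b was highest in subclones 19 (12.86) and 18 (12.82) and the alpha subunit gene Atp5a1 lowest in subclone 3 (12.22). The membrane ring of ATP synthase is made of subunit c, which the 3 genes Atp5g1, Atp5g2 and Atp5g3 encode with different targeting peptides. Atp5g1 measured 11.02, 10.95 and 11.01 in subclone 19, above all other arrays, and 10.79, 10.86 and 10.88 in subclone 18, against 10.16 to 10.67 in the other 6. Its differences were 0.54 ± 0.034 SE (1.45-fold higher, adjusted p = 2.99e-10) and 0.37 ± 0.034 SE (adjusted p = 3.38e-08). The paralog Atp5g2 had a range of 0.23 and Atp5g3 of 0.16 (F-test adjusted p = 0.0231, and 0.103 without replicate 2 of subclone 6). Atp5d, the delta subunit of the central stalk, was lowest in subclone 24 (11.71, 11.72 and 11.75) and highest in subclone 19 (12.44, 12.39 and 12.48), and neither group overlapped with the remaining arrays. Atp5o, part of the peripheral stalk, was lowest in subclone 24 (10.92 to 10.96 against 11.01 or more), and Atp5pb, another stalk subunit, was highest in subclone 19 (12.61). Atp5l and Atp5h did not pass the F-test (adjusted p = 0.243 and 0.0775), with ranges of 0.15 and 0.19. Atp5h passed with a pseudocount of 64 (adjusted p = 0.044), with the filter on low values (0.0415), with the mean over probe sets (0.0154), with an intensity trend (0.0167) and without replicate 1 of subclone 6 (0.0192). Of the 17 genes, 8 were higher and 3 lower in subclone 19 (24.2% and 17.7% of all genes tested were), and 6 and 3 in subclone 18 (21.5% and 21.6%). In subclone 6, 1 was higher and 6 were lower (13.8% and 10.1%), and the 6 were 2 without its replicate 2 and 10 without its replicate 1. The other 5 subclones had 2 to 5 higher and 3 or 4 lower (15.2% to 20.2% and 17.1% to 20.5% of all genes tested were). When single arrays were left out, these had 1 to 5 higher and 2 to 5 lower.

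**Figure D3:**
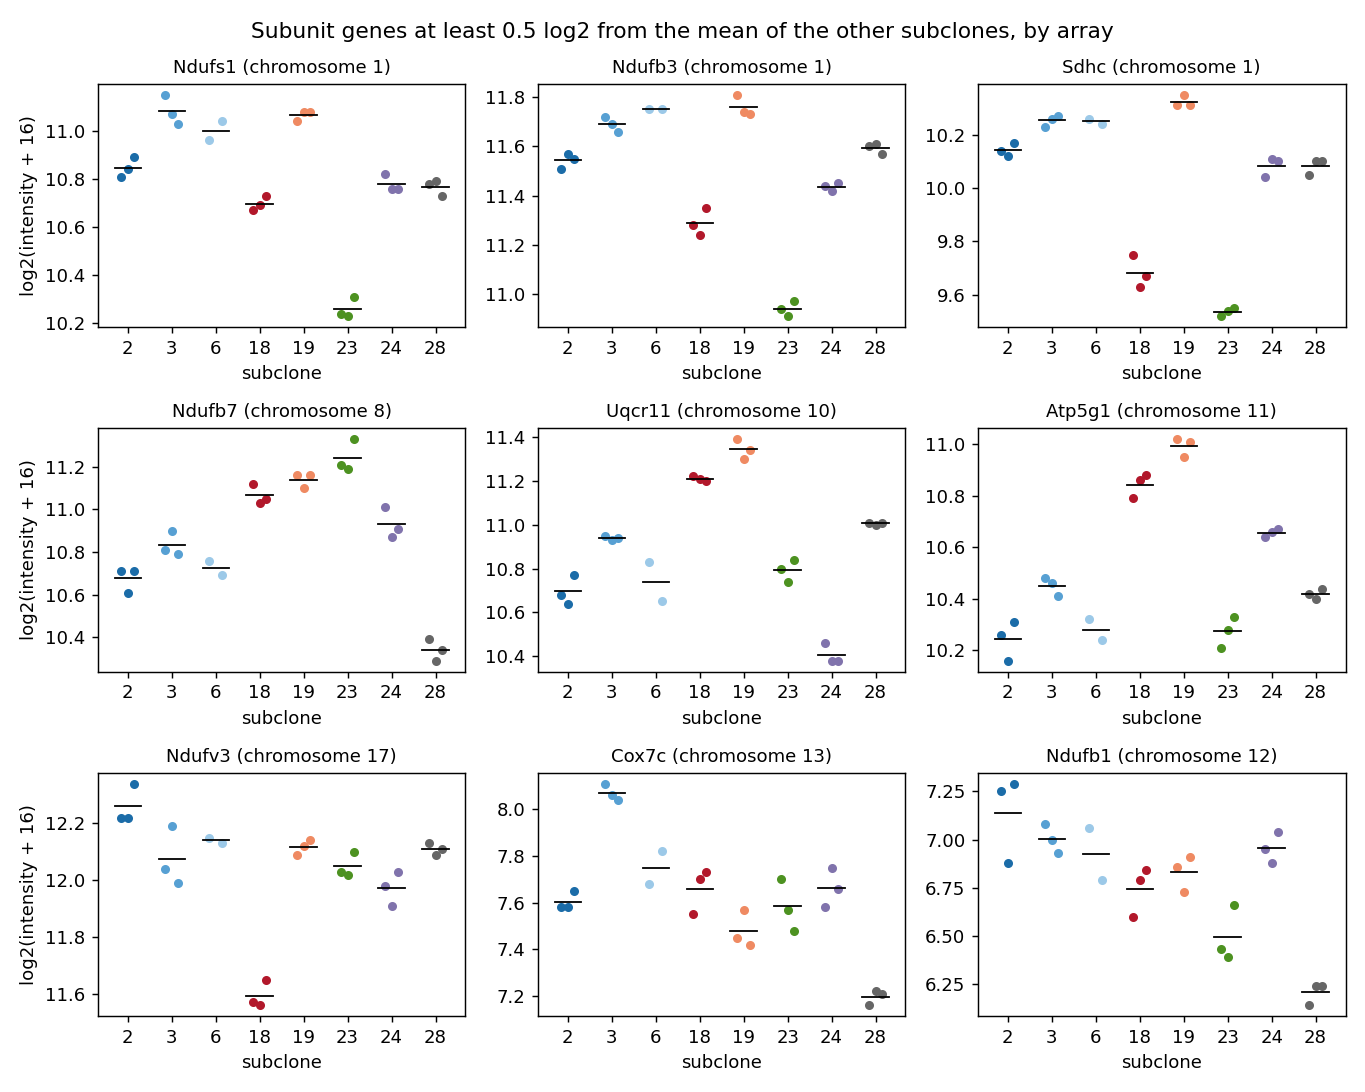
Each panel is a subunit gene with a difference of at least 0.5 log2 units in some subclone; points are single arrays in log2(intensity + 16), bars are subclone means, and the y axes differ between panels. Subclone 23 is lowest for Ndufs1, Ndufb3 and Sdhc, which lie on chromosome 1, subclone 28 for Ndufb7 and Ndufb1, subclone 18 for Ndufv3 and subclone 24 for Uqcr11.

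Subclone means were correlated between members of a chromosome, and in the median not between members of a complex alone. For the 76 genes past the F-test, Pearson's r was taken over the 8 subclone means for each pair of genes. The 740 pairs from the same complex but different chromosomes had a median r of 0.00, and 50% were positive. The 1976 pairs that shared neither had a median of 0.02. The 94 pairs from the same chromosome but different complexes had a median of 0.65 (86.2% positive), and the 40 pairs that shared both had a median of 0.51 (82.5% positive). These values are a description with no test, because the pairs share genes and all of them share the same 23 arrays. Among 10280 other genes past the F-test and at or above 5.3, the median r was 0.18 for pairs on the same chromosome and 0.00 for other pairs. Chromosomes 8 (3 genes, median r = 0.89), 15 (5 genes, 0.75), 1 (5 genes, 0.73), 13 (5 genes, 0.71), 19 (5 genes, 0.70) and 10 (5 genes, 0.62) had the highest medians. On chromosomes 3, 4 and 17 the medians lay between -0.07 and 0.06.

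For each subclone, the median difference over all other genes of a chromosome with a mean of at least 5.3 was set beside each of the 79 members at or above that level. The correlation of a member's difference with its chromosome's median ran from 0.54 in subclone 3 to 0.82 in subclone 23. For the 12229 other genes it ran from 0.20 in subclone 18 to 0.36 in subclone 23. The members had a smaller spread of differences than those genes (in subclone 23, an SD of 0.188 against 0.336), which were not matched to them for level. Members on a chromosome share its median, so the points are not independent. Subtracting the chromosome medians made the spread of the 8 differences smaller for 63 of the 79 genes, from a median of 0.43 to 0.33. The same count is not given for the other genes, and whether the subunit genes differ from them in this was not tested.

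**Figure D4:**
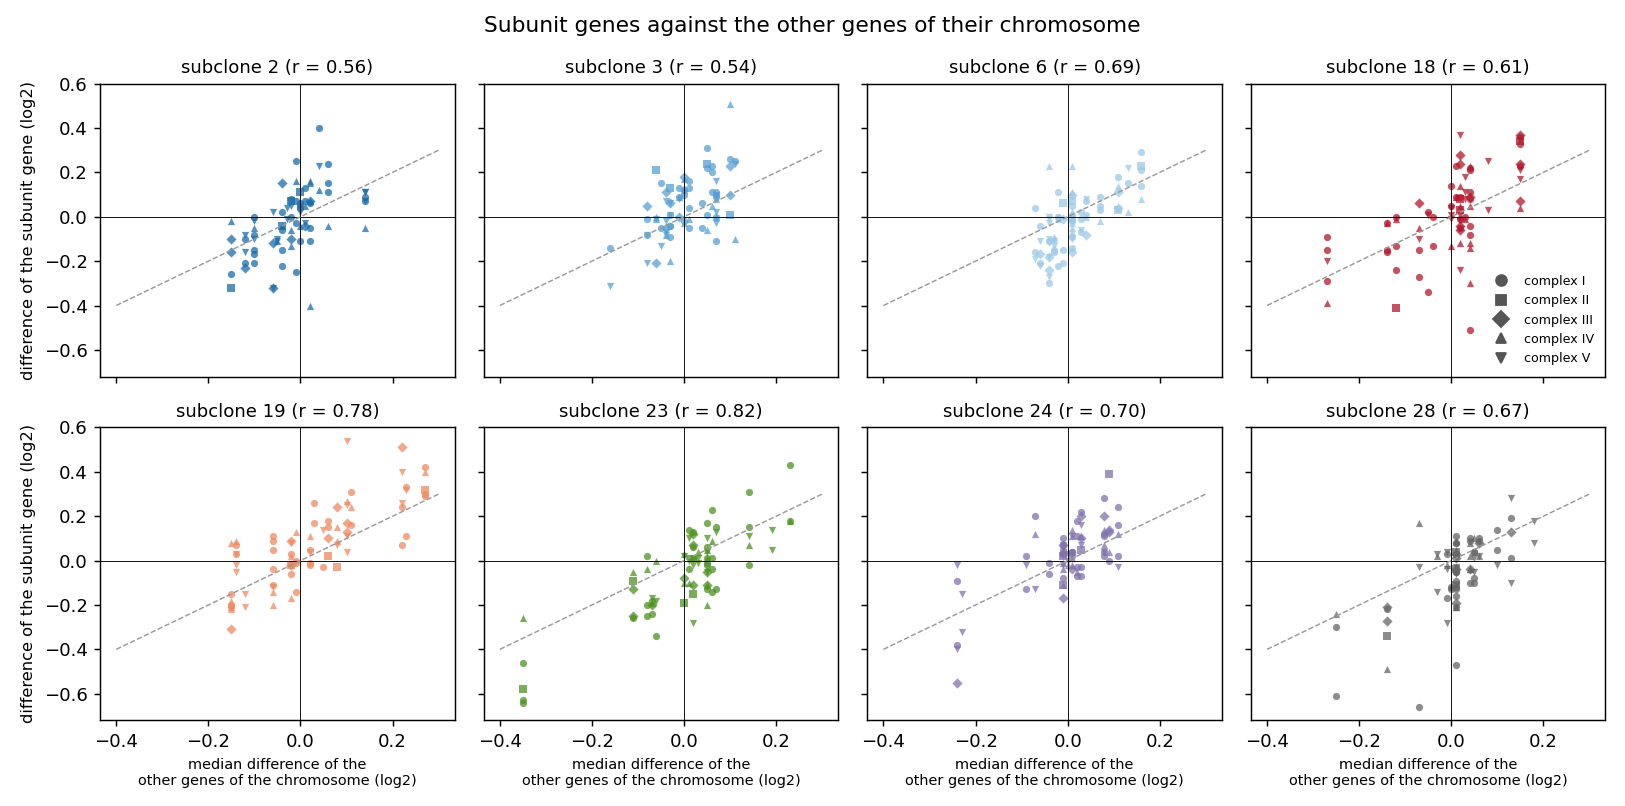
Each panel is a subclone and each point a subunit gene (79 genes with a mean level of at least 5.3); the x axis gives the median log2 difference of the other genes of its chromosome, the y axis the gene's own log2 difference, the marker its complex, and the dashed line equality. Points run from lower left to upper right in every panel (r = 0.54 to 0.82), with all 5 genes of chromosome 1 at the lower left in subclone 23.

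Chromosome 1 carries Ndufa10, Ndufb3, Ndufs1, Sdhc and Cox5b, from complexes I, II and IV. In subclone 23 all 5 were lower, with every array below every array of the other subclones, by -0.26 (Cox5b) to -0.64 (Ndufb3). The median over 715 other genes of the chromosome was -0.35 in that subclone. Outside chromosome 1, 23 members were lower in subclone 23 (17.4% of all genes tested, chromosome 1 included, were). In subclone 19 all 5 were higher (24.2% of all genes tested were), by 0.29 (Ndufs1) to 0.42 (Ndufa10), with a chromosome median of 0.27. Arrays of subclone 23 lay below all others for 8 members in all (9.64%, against 2.9% of all genes tested), and arrays of subclone 19 above all others for 12 (14.5%, against 5.46%). Arrays of subclone 28 lay below all others for 9 members (10.8%), for which the share over all genes is not given.

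On chromosome 8, Ndufb7, Ndufa13 and Cox4i1 were all lower in subclone 28 (-0.61, -0.30 and -0.24; chromosome median -0.25) and all higher in subclone 23 (0.43, 0.18 and 0.18; chromosome median 0.23). On chromosome 19, Ndufb8, Ndufs8, Ndufv1, Cox8a and Atp5md were all lower in subclone 18, by -0.09 to -0.39, with a chromosome median of -0.27. On chromosome 13, Ndufs4, Sdha, Uqcrb, Uqcrfs1 and Cox7c were all lower in subclone 28, by -0.21 to -0.49, with a median of -0.14. A difference could also exceed that of the chromosome: Ndufb7 in subclone 28 and Ndufb3, Ndufs1 and Sdhc in subclone 23 lay more than 0.2 below its median. Of all genes tested, 18.2% were lower in subclone 28, 20.2% higher in subclone 23 and 21.6% lower in subclone 18. These chromosomes are examples whose members agreed. Pairs of the 8 members on chromosome 7 had r from -0.77 to 0.90 (median 0.35). On chromosome 2, r ran from -0.04 to 0.79 (median 0.50).

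On chromosome 10, Atp5d, Ndufs7 and Uqcr11 are close neighbours, with 17 tested genes from Atp5d to Uqcr11, Ndufs7 among them. All 3 were lower in subclone 24 (-0.40, -0.38 and -0.55) and higher in subclone 19 (0.40, 0.24 and 0.51) and in subclone 18 (0.17, 0.23 and 0.37). The 15 other genes between them with a mean of at least 5.3 had medians of -0.29, 0.23 and 0.34 in these subclones, and 14 of 15 were below 0 in subclone 24. The chromosome as a whole had medians of -0.24, 0.22 and 0.15. Atp5b, far from them on the same chromosome, was not called in subclone 24 (-0.02, adjusted p = 0.675) and was higher in subclones 19 and 18 (0.26 and 0.21). Ndufa12, also on chromosome 10, was called lower in subclone 24 and higher in subclones 19 and 18. The 3 neighbours were called higher in subclone 28 too, where the genes between them had a median of 0.14 and the chromosome 0.13. Of all genes tested, 17.1% were lower in subclone 24, and 24.2%, 21.5% and 19.2% were higher in subclones 19, 18 and 28.

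Promoter sequences are shown for the genes of chromosomes 1 and 10 that varied together, so that letters they share or lack can be seen. Windows of 300 bases around the start (250 before and 50 after, RefSeq, GRCm38.p6) matched 67 of the 83 genes, Ndufs1 and Sdhc not among them. The 150 bases before the start are printed 5′ to 3′ on the gene's strand, and capitals mark the ETS motif searched. For Atp5d, which has 2 windows, the one listed first was used.
Ndufb3 (chr1:58586247-58586396, plus strand): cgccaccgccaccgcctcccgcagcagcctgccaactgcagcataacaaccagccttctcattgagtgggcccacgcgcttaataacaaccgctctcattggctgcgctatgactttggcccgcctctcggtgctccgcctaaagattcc
Ndufa10 (chr1:92473759-92473908, minus strand): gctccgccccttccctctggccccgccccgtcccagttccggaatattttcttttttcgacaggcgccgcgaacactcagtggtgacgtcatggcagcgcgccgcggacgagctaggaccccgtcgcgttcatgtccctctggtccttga
Cox5b (chr1:36691337-36691486, plus strand): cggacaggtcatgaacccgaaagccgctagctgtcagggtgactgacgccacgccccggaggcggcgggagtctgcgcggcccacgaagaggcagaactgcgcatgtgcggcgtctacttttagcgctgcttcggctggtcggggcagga
Atp5d (chr10:80142125-80142274, plus strand): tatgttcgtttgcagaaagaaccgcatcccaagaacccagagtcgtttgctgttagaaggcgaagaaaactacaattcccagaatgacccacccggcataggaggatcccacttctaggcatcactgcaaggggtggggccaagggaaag
Ndufs7 (chr10:80249299-80249448, plus strand): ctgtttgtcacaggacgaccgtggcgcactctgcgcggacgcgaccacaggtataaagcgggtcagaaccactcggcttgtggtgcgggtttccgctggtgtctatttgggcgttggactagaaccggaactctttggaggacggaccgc
Uqcr11 (chr10:80406822-80406971, minus strand): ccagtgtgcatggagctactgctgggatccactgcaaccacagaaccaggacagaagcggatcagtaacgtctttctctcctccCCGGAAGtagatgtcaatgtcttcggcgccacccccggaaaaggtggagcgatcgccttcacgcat
Motifs of factors known to act on respiratory genes were searched on both strands of the whole window: CGCATGCG for NRF1, CCGGAAG for ETS factors such as GABPA, and AAGATGGCG for YY1. None of these motifs contains another. Uqcr11 held the ETS motif shown and the NRF1 motif across its start, Ndufs7 held the YY1 motif after its start, and none of the other 4 windows held any of the 3. Over all 67 members with a window, 17 held the ETS motif (25.4%, against 9.93% of 27025 genes). The NRF1 motif was held by 8 (11.9% against 2.07%) and the YY1 motif by 6 (8.96% against 1.64%). The 27025 are all genes with a window, not limited to the 18193 tested, and were not matched to the members for level. Ndufs8, Cox8a and Atp5md of chromosome 19 were among the 17 with the ETS motif. A match is a description of letters.

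Some larger differences were not shared by the chromosome. Ndufv3 in subclone 18 (-0.51) stood on chromosome 17, whose median was 0.04, and its 40 nearest tested neighbours at or above 5.3 had a median of 0.08. For Atp5g1, on chromosome 11, the difference of 0.54 in subclone 19 stood beside 0.10 for the chromosome and 0.03 for the neighbours, and that of 0.37 in subclone 18 beside 0.02 and -0.02. Ndufa5 in subclone 28 (-0.47) stood beside 0.01 and -0.04 on chromosome 6, and Ndufb1 in subclone 28 (-0.66) beside -0.07 and -0.13 on chromosome 12. For Sdhc in subclone 18, the difference of -0.41 compared with -0.12 for chromosome 1 and -0.08 for the neighbours.

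Genes that assemble the complexes were read from a fixed list. All 15 complex I assembly genes measured passed the F-test (61.8% of all genes tested did). In subclone 3, 9 were higher and 1 lower (19.4% and 18.6% of all genes tested were), and in subclone 18, 8 and 1 (21.5% and 21.6%). In subclone 23, 1 was higher and 9 were lower (20.2% and 17.4%), and in subclone 28, 1 and 7 (19.2% and 18.2%), the 7 being 4 without its replicate 3. The other 4 subclones had 2 or 3 higher and 4 to 6 lower (13.8% to 24.2% and 10.1% to 20.5% of all genes tested were). In subclone 6, the higher count fell without its replicate 1 and the lower count without its replicate 2. Nubpl, which delivers iron-sulphur clusters to complex I, was at 10.24 ± 0.0080 (SD, n = 3) in subclone 3 and 9.04 ± 0.048 (SD, n = 3) in subclone 23, with differences of 0.80 (adjusted p = 1.65e-12) and -0.57 (adjusted p = 1e-10). Ndufaf4 was higher in subclone 18 (0.78, adjusted p = 1.04e-10), as were Ndufaf6 (0.73), Tmem126b (0.60) and Ecsit (0.51). Their chromosomes had medians of 0.02 to 0.04 in that subclone. Ndufaf5 was higher in subclone 3 (0.59, chromosome median 0.07) and Ndufaf2 lower in subclone 23 (-0.55, adjusted p = 3.5e-08, chromosome median -0.11). For Nubpl the chromosome median was 0.11 in subclone 3 and -0.06 in subclone 23.

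The succinate dehydrogenase factor gene Sdhaf3 was higher in subclone 3 (0.73, chromosome median 0.06) and lower in subclone 18 (-0.59, chromosome median -0.14). All 4 such genes passed the F-test (61.8% of all genes tested did). Uqcc3, for complex III, was lower in subclone 18 (-0.76, adjusted p = 1.68e-12) and lies on chromosome 19, with its median of -0.27 there. Sdhaf4 (-0.59) and the ATP synthase factor gene Tmem70 (-0.65), both on chromosome 1, were lower in subclone 23 (chromosome median -0.35). Cox20, for complex IV and also on chromosome 1, was higher in subclone 19 (0.59, chromosome median 0.27). Of 19 complex IV assembly genes, 10 were higher and 3 lower in subclone 19 (24.2% and 17.7% of all genes tested were), 8 and 5 in subclone 3 (19.4% and 18.6%), 3 and 8 in subclone 23 (20.2% and 17.4%) and 2 and 9 in subclone 28 (19.2% and 18.2%). The 5 lower in subclone 3 were 3 without its replicate 3, the 3 higher in subclone 23 were 1 without any of its replicates, and the 2 higher in subclone 28 were 1 without its replicate 2 or 3. The other 4 subclones had 3 to 6 higher and 4 to 6 lower (13.8% to 21.5% and 10.1% to 21.6% of all genes tested were). The 6 higher in subclone 2 were 3 without its replicate 2 or 3. The 6 lower in subclone 18 were 3 without its replicate 3. In subclone 6, the higher count fell without either array, and the lower count without its replicate 2.

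Among 18 regulators of mitochondrial biogenesis, 15 passed the F-test (61.8% of all genes tested did). No subclone had more than 7 on the same side. Over the subclones, 13.8% to 24.2% of all genes tested were higher and 10.1% to 21.6% lower. The 7 higher in subclone 6 were 1 without its replicate 1. Ppargc1b, a coactivator that drives mitochondrial gene expression, was higher in subclone 18 (7.07 ± 0.15, SD, n = 3; difference 0.66 ± 0.16 SE, adjusted p = 0.00271) and lower in subclone 23 (5.65 ± 0.61, SD, n = 3; difference -0.96 ± 0.16 SE, adjusted p = 9.95e-05), at low levels and with a wide spread. Tfb2m, a mitochondrial transcription factor gene on chromosome 1, was lower in subclone 23 (-0.61, adjusted p = 8.69e-11), and Polrmt, the mitochondrial RNA polymerase gene on chromosome 10, was higher in subclone 18 (0.50, adjusted p = 1.51e-07).

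Of 23 genes of the tricarboxylic acid cycle and pyruvate dehydrogenase, 12 were higher and 4 lower in subclone 3 (19.4% and 18.6% of all genes tested were), 10 and 4 in subclone 18 (21.5% and 21.6%) and 10 and 9 in subclone 19 (24.2% and 17.7%). In subclone 23, 2 were higher and 12 lower (20.2% and 17.4%), and in subclone 28, 4 and 10 (19.2% and 18.2%). The other 3 subclones had 4 to 7 higher and 3 to 6 lower (13.8% to 15.4% and 10.1% to 20.5% of all genes tested were). The 7 higher were in subclone 6, and that count fell when either of its 2 arrays was left out. Pdk4, which inhibits pyruvate dehydrogenase, was at 8.23 ± 0.073 (SD, n = 3) in subclone 18, 2.30 above the mean of the others (adjusted p = 2.82e-15), and was lower in subclones 2 (-0.74) and 24 (-0.73). Pdk1, another kinase of that enzyme, was lower in subclone 18 (-0.63). Ogdh, a subunit of the oxoglutarate dehydrogenase complex, was lower in subclones 6 (-0.62) and 2 (-0.59) and higher in subclone 19 (0.52).

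All 18 genes of electron carriers and ubiquinone synthesis passed the F-test (61.8% of all genes tested did). Coq8a (chromosome 1) was higher in subclone 19 (1.10) and lower in subclones 2 (-0.61) and 28 (-0.57), and the call in subclone 28 was lost with the mean over probe sets (-0.15, adjusted p = 0.216). Coq3, a methyltransferase of ubiquinone synthesis, was higher in subclones 3 (0.75) and 18 (0.66) and lower in subclone 24 (-0.59). Gpd2 was lower in subclone 18 (-0.61), and Etfdh, which passes electrons from fatty acid oxidation to ubiquinone, was higher in subclone 19 (0.57).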

How the data were processed

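RNA of the 8 subclones was measured on Affymetrix mouse arrays, with 23 arrays and 45101 probe sets. The deposited values are linear intensities (0.61 to 17068.52). How the authors summarised and scaled the probes is not given in the sources used here. Detection calls were not used. Values were taken as log2(intensity + 16). Control probe sets (64) and those with several symbols (932) or not listed in the platform annotation (9160) were left out; symbols of 34741 of 34945 probe sets were updated through RefSeq (GRCm38.p6). Of several probe sets of a gene (49 members), the one with the highest mean was kept. No filter on low values was applied to the tests.

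Over all 18193 genes, limma 3.58.1 (lmFit and eBayes; R 4.3.3) estimated the subclone means (15 residual degrees of freedom), tested them together by its F-test, and gave contrasts of each subclone against the equally weighted mean of the other 7, which share arrays. It was tested on simulated data. Alternatives were 2 other pseudocounts (1 and 64), a filter at 5.3, quantile normalization, median centring, the mean over probe sets, the replicate number as a block, array weights, an intensity trend and leaving out each array. Chromosome medians and correlations are descriptions. Named genes were the 4 widest members and the least variable one of each complex, members and genes of the pathway lists called with a difference of at least 0.5 (a wider naming than the 2 genes per list and direction of the first rule), the markers Ndufs1, Sdhc and Ndufa5, fixed isoform sets, and, after their values were seen, further members named as examples. The members and lists were chosen with earlier results of these data known.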

Additional observations from a re-analysis of the deposited data

How the results depend on the processing

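The F-test called 76 members as reported and 75 to 77 under the other settings (75 with the replicate block), and 74 to 77 when each array was left out. Same-numbered replicates did not deviate together (mean r = -0.00282 over 77 pairs, 8 above 0.1), so the labels' numbers were not taken as pairs; the block moved no count of members by over 1.5 times. Other settings moved 3 of the 16 counts per contrast by more than that: centring on array medians gave 27 members higher in subclone 2 (15 as reported) and 5 lower in subclone 3 (9), and the mean over probe sets gave 12 higher in subclone 24 (20). Leaving out each array gave, for higher and lower members, 11 to 18 and 17 to 24 in subclone 2, 22 to 34 and 6 to 12 in subclone 3, 5 to 9 and 6 to 23 in subclone 6, 19 to 26 and 18 to 21 in subclone 18, 28 to 35 and 11 to 14 in subclone 19, 11 to 17 and 22 to 28 in subclone 23, 14 to 22 and 9 to 12 in subclone 24, and 6 to 15 and 23 to 28 in subclone 28. The cause was not tested; each such fit has fewer arrays. The 10 member differences of at least 0.5 kept their direction and their call in all these settings. Leaving chromosome 1 out of the count for subclone 23, or chromosome 19 for subclone 18, kept the counts within 1.5 times. Members under 5.3 have no firm level, and 44 members were read by probe sets with a suffix for shared or multiple transcripts.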
